A study of Mus musculus with 3 samples.

Results

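The Hox genes of the A, B, C and D clusters encode homeodomain transcription factors that set the identity of body segments along the head-to-tail axis. They were chosen by name: every array feature other than a control whose gene name, or current symbol by accession or synonym, is Hox followed by a cluster letter and a paralogue number. Values are described for 37 such genes, read by 48 probes, of 27669 genes named on the array. Hoxc11 had no probe matched to it and was not analysed here. RNA came from mouse embryonic stem (ES) cells of line V6.5, whose strain background mixes 129 with C57BL6. They were kept on irradiated feeders with leukaemia inhibitory factor (LIF), and preplating, which lowers the number of feeder cells, preceded extraction. Cells labelled Tet1 KO (samples 4 and 22) were compared with 1 sample of cells labelled Tet1 WT, on 3 Agilent Cy3 arrays. The labels do not say whether KO 4 and KO 22 are separate clones or cultures, or which part of Tet1 was removed, while the series' own design line mentions mice. The p-values thus reflect how far these particular samples varied, possibly for technical reasons, and wild type has no replicate.

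Within each cluster the genes lie in the order in which they are used along the axis, so that low paralogue numbers mark the hindbrain and neck and high numbers the lumbar region, tail and limb ends. In ES cells the clusters are known to be held nearly silent by Polycomb complexes, which act on promoters rich in CG dinucleotides. The TET1 protein oxidises 5-methylcytosine and is known to occupy CG-rich promoters, many of them also bound by Polycomb in ES cells. The values below bear on whether Hox transcripts were detectable in these cells and whether they differed where Tet1 was lost.

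Tet1 and cell type markers were read first, as a check of the labels. The Tet1 probe gave a processed intensity (spot brightness after background subtraction, before arrays were scaled to each other) of 214 on KO 4, 195 on KO 22 and 721 on wild type, a level 3.85-fold lower (log2 difference -1.94 ± 0.09, limma adjusted p = 0.053), although the sources used here do not place the probe relative to the deletion. All 10 ES cell markers examined were well above background on every array, and KO 4 and KO 22 differed from wild type by a median of -0.14 and -0.06 (log2). All 20 markers of fibroblasts, the usual feeder cells, were also well above background on every array. These summed to an intensity of 42465, 28555 and 21916 on KO 4, KO 22 and wild type. Tagln, a smooth muscle and myofibroblast gene, made up 19585, 12006 and 5090 of this, and the other 19 summed to 22879, 16549 and 16826. The 10 primitive endoderm markers summed to 1818, 1437 and 2939. Of 13 neural and mesoderm markers 11 were tested, and these 11 summed to 10760, 9154 and 13446. This sum is weighted by its brightest genes and hides opposite directions. Of the 11, 4 were higher than wild type on both knockout arrays and 6 lower, where 38.0% and 45.5% of all genes were. The part of these other cells in the Hox signals below was not tested, and in bulk RNA fewer cells of a type cannot be told apart from less RNA per cell.

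Most Hox genes were not detected on any array. A gene counted as detected where the scanner software called a probe for it well above background. By that flag at least 1 array detected 14 of 37 Hox genes (37.8%), against 64.0% of all genes named on the array. All 3 arrays detected 10 of 37 (27.0%), against 59.3%. KO 4 and KO 22 detected 12 each and wild type 13, so the number of detected Hox genes differed little between the genotypes. On the arrays as a whole, 62.2% to 62.8% of spots were well above background.

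Detection was spread over all 4 clusters. Of the genes described it covered 4 of 10 HoxA genes, 5 of 10 HoxB genes, 3 of 8 HoxC genes and 2 of 9 HoxD genes on at least 1 array. All 5 detected genes of HoxB and both of HoxD were seen on every array, as were 2 of the 4 in HoxA and 1 of the 3 in HoxC. Along the axis, detection was patchy rather than graded in these counts, which also depend on the probe. Only 11 of the 37 genes had more than 1 probe, and for Hoxa3, Hoxb2 and Hoxd13 1 probe was detected and the other not. Among paralogues 1 to 3 detection covered 2 of 7 genes, among 4 to 8 it covered 6 of 15, and among 9 to 13 it covered 6 of 15. Both genes of paralogue 7 on the array, Hoxa7 and Hoxb7, were detected on all 3 arrays. No described member of paralogues 1, 5, 8, 10, 11 or 12 was detected on any.

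**Figure D1:**
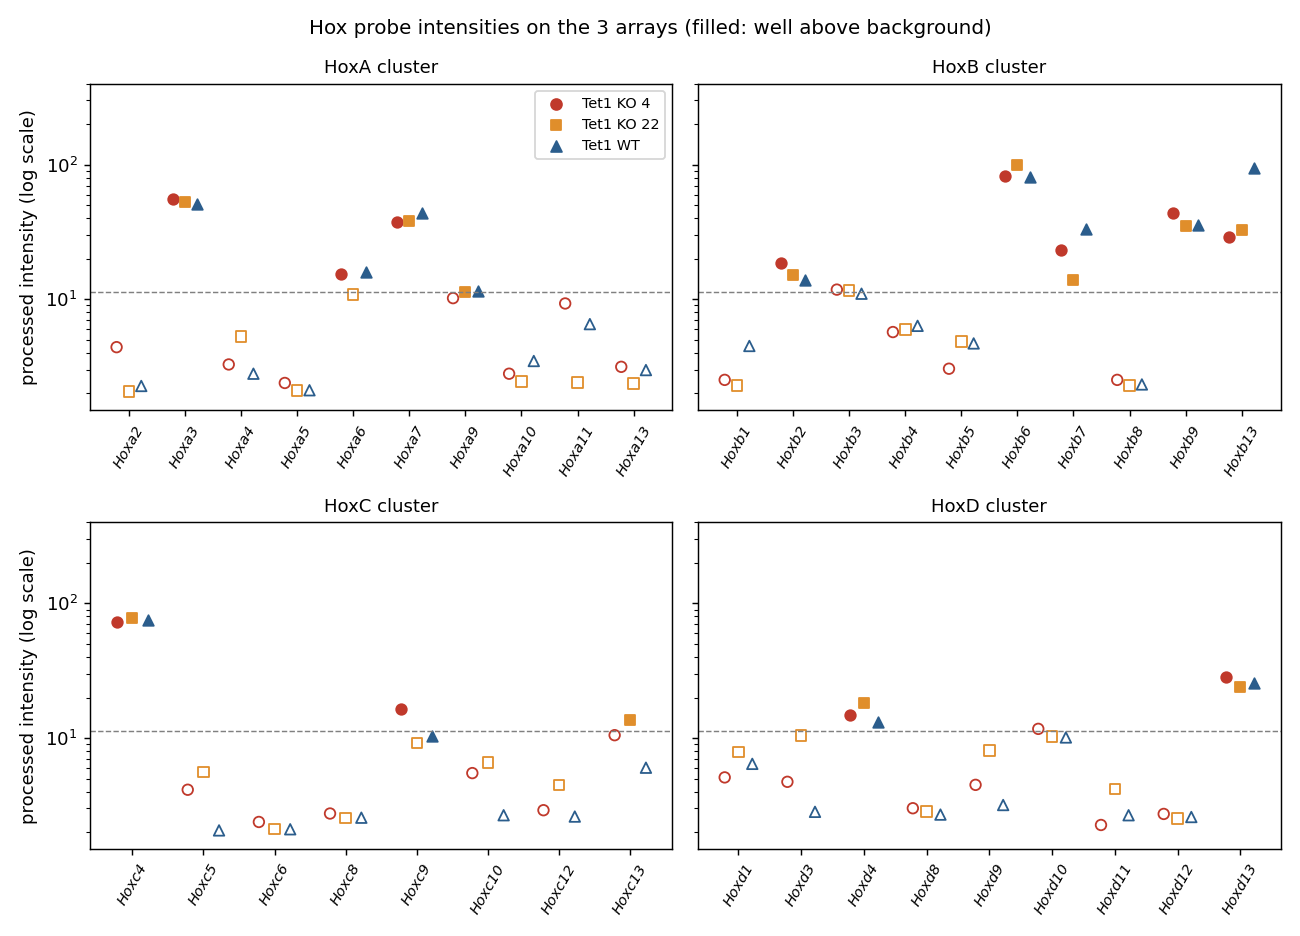
Processed intensity (log scale) of 1 probe for each of the 37 Hox genes on the arrays of KO 4 (circles), KO 22 (squares) and wild type (triangles), in 4 panels by cluster and ordered by paralogue number. Filled symbols are well above background and open symbols are not; the dashed line is the lowest intensity so called on KO 4 (11.28), the flag being set spot by spot. Intensities of different genes come from different probes and are not comparable. Of the 14 genes with a filled symbol, Hoxb13 is the one with both knockout symbols well below the wild type triangle.

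Stretches upstream of 3 of these genes show how different Hox promoters with and without a detected transcript can be in CG content. They are the 250 bases before the annotated start, from RefSeq on build GRCm38.p6, read 5′ to 3′ on the gene's strand, with each CG in capitals. Hoxd13, which patterns digits, was detected through 1 of its probes. Hoxa13, its paralogue in the limb ends and hindgut, was not detected, and Hoxa9, a regulator of blood stem cells, was detected on 2 of the 3 arrays.
Hoxd13: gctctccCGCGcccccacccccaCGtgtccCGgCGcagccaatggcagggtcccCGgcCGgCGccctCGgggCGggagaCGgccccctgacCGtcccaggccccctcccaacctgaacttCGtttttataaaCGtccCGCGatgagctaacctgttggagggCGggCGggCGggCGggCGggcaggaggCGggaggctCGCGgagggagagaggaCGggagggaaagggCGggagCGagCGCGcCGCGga
Hoxa13: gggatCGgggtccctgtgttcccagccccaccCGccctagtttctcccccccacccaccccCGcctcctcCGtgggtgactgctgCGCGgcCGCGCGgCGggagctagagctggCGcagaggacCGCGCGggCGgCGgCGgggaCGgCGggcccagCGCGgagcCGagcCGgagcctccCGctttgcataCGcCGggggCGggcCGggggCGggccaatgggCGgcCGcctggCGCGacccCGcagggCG
Hoxa9: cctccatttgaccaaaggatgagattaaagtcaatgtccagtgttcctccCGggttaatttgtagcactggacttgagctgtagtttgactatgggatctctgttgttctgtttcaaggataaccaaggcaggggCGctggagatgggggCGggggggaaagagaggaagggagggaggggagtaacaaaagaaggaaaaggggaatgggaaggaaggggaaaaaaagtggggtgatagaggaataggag
The Hoxd13 window, at chr2:74667975-74668224 on the plus strand, holds 31 CG, as many as or more than which occur in 5.2% of 32851 promoter windows of the same length. That of Hoxa13, at chr6:52260881-52261130 on the minus strand, holds 35 CG (3.0% of windows hold as many). That of Hoxa9, at chr6:52227371-52227620 on the minus strand, holds 3 CG (71.0%). Windows were at hand for 22 of the 37 Hox genes, 24 windows in all, with a median of 12.5 CG against 6 over all windows. Taking the richer window where a gene had more than 1, the 7 detected genes had a median of 8 CG (range 3 to 31) and the 15 not detected a median of 13 (range 6 to 35), so the ranges overlapped over most of their length. These counts describe the sequence only, since methylation and binding at these sites were not measured.

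Genes with a probe well above background on 1 array or more were tested, on log2 intensities from which each array's 75th percentile (717.7 on KO 4, 644.9 on KO 22 and 623.7 on wild type) had been taken. A knockout intensity can therefore exceed that of wild type while the log2 difference is near 0 or negative. Of the 14 Hox genes tested 0 passed (limma adjusted p below 0.05), where 63 of all 17710 genes (0.356%) did, 0.0339% higher and 0.322% lower. At an unadjusted limma p below 0.05 the Hox genes numbered 2 lower, Hoxb13 and Hoxb7, and 0 higher, where 28.2% of all genes were past that value in either direction and 15.0% were lower. By size, 1 of 14, Hoxb13, was at least 2-fold lower than wild type on both knockout arrays (1.56% of all genes were), and 0 were at least 2-fold higher on both (1.45% of all genes). The 14 differed by a median of -0.14 (KO 4) and -0.08 (KO 22), beside -0.04 and -0.02 over all genes tested. Of the 14, 10 lay within 0.5 of wild type on both knockout arrays, as did 75.7% of all genes. Both knockout comparisons share the wild type array.

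**Figure D2:**
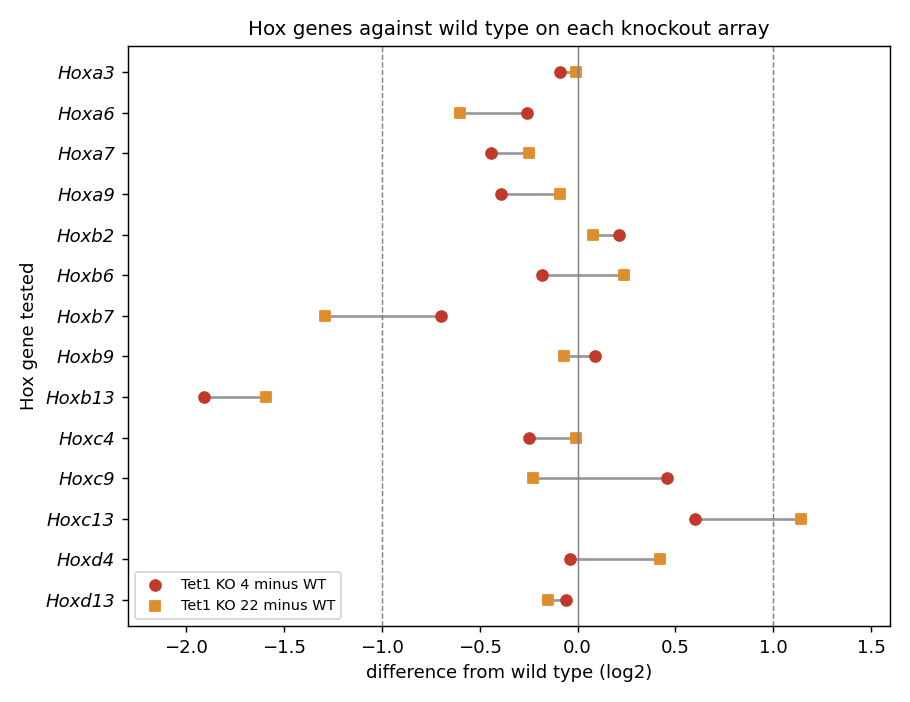
Log2 difference from wild type of the 14 Hox genes tested, for KO 4 (circles) and KO 22 (squares), each against the same wild type array; a grey line joins the values of a gene and dashed lines mark 2-fold. Hoxb13 lies beyond the 2-fold line on both arrays (-1.91 and -1.59), Hoxb7 and Hoxc13 on KO 22 alone, and the remaining 11 genes on neither. Hoxc13 entered the test through KO 22 alone and was not well above background on wild type, so its place gives no fold.

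Hoxb13, the last gene of its cluster, which is active in the tail bud, hindgut and prostate, was the Hox gene farthest from wild type among the 14. Its probe, on the plus strand at chr11:96304167-96304226 of build mm7, gave an intensity of 29.1 on KO 4, 32.6 on KO 22 and 95.2 on wild type. Both knockout values lie close together and well under the wild type value, and all 3 are well above background. The level was 3.37-fold lower in the knockout samples, a log2 difference of -1.75 ± 0.18 (standard error from limma, n = 2 against 1; adjusted p = 0.0973), which did not pass. Of all 17710 genes, 0.779% had a mean difference as low or lower. It passed under 4 of 8 other settings, each of which called more genes overall. With the test limited to probes above background on every array (limma adjusted p = 0.0414) 5.52% of all genes were called, 2.5% lower. With the deposited series matrix values (-1.52, limma adjusted p = 0.0262) 5.54% were called, 2.82% lower. With an intensity trend in the variance model (limma adjusted p = 0.00766) 19.0% were called, 10.7% lower. With normexp background correction, which adds an offset and so compresses low values, it also passed (limma adjusted p = 9.54e-06, 18.4% of genes called, 10.7% lower), but the difference shrank to -0.95, or 1.94-fold. It did not pass with quantile normalization (limma adjusted p = 0.102, 0.311% called), without probes beside a spot bright on 1 array (0.088, 0.286% called), with the probes of a gene averaged (0.0982) or with no filter (0.172, 0.0% called).

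Hoxb13 rests on 1 probe, with no second one to set beside it. None of the 48 Hox probes, this one included, had a spot within 2 rows and columns that was at least 8-fold brighter on 1 array than on both others. Of all spots 4.2% had one, so few were to be found among 48 probes. Primitive endoderm markers also lay below wild type on both knockout arrays, 10 of 10 of them (45.5% of all genes did), with medians of -0.99 and -1.14. Among them 1 passed, Cubn, an endocytic receptor of the visceral endoderm (-3.46 ± 0.11, limma adjusted p = 0.0347), where 0.322% of all genes passed and were lower. Their part in the Hoxb13 value was not tested. The 20 fibroblast markers had medians of 0.62 (KO 4) and -0.08 (KO 22). Of these 8 were higher on both arrays and 3 lower, where 38.0% and 45.5% of all genes were. The part of fibroblasts in the Hoxb13 value was not tested either.

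The genes tested around Hoxb13 differed less from wild type than it did, and in both directions. Within 500 kb of its probe 17 other genes were tested, and 0 of these were at least 2-fold away from wild type in the same direction on both knockout arrays. Of all genes only 1.56% were that much lower and 1.45% that much higher, so a count of 0 among 17 is near those shares. The differences of the 17 ran from -1.29, for Hoxb7 on KO 22, to 0.52, the medians being -0.19 (KO 4) and -0.13 (KO 22). Hoxb7, 94.8 kb away, was lower on KO 4 too, at -0.70. On both arrays 9 of the 17 were lower and 3 higher, where 45.5% and 38.0% of all genes were. Ttll6, which encodes a tubulin-modifying enzyme and had the nearest tested probe, 29.8 kb away beyond the end of the cluster, differed by -0.06 on KO 4 and 0.22 on KO 22. Hoxb9, the nearest tested Hox gene at 81.3 kb, differed by 0.09 and -0.07.

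**Figure D3:**
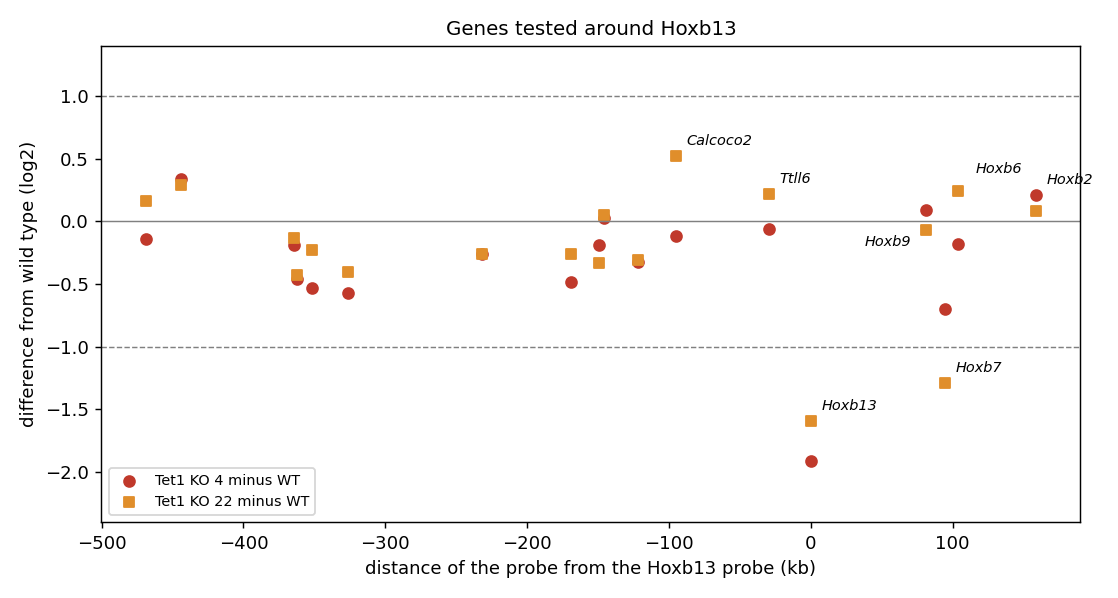
Log2 difference from wild type on KO 4 (circles) and KO 22 (squares) of the 18 genes tested within 500 kb of Hoxb13, against the distance of each probe from the Hoxb13 probe in kb; positive distances run into the HoxB cluster and dashed lines mark 2-fold. Hoxb13 stands at -1.91 and -1.59 at distance 0, and only Hoxb7, on KO 22, is also beyond 2-fold.

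Hoxb7, which acts in the thoracic region and the developing kidney, had intensities of 23.4 on KO 4, 14.0 on KO 22 and 33.0 on wild type. Both knockout values were below wild type, but they differed from each other by 0.59 on the log2 scale. The mean difference was -0.99 ± 0.31 and did not pass (limma adjusted p = 0.174), except with normexp, where it passed at -0.37 (adjusted p = 0.0205).

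The other HoxB genes detected lay close to wild type. Hoxb2, a hindbrain gene, had intensities of 18.5, 15.2 and 14.0 on KO 4, KO 22 and wild type (difference 0.14 ± 0.11, limma adjusted p = 0.456). Its other probe, on the opposite strand of the same chromosome, was not well above background on any array. Hoxb6, which acts in trunk mesoderm, had 82.5, 99.7 and 81.5 (0.03 ± 0.23). After scaling, KO 4 differed from wild type by -0.18 on the log2 scale and KO 22 by 0.24. Its other detected probe, 2282 bases away, gave 29.7, 18.5 and 19.2, with KO 4 higher by 0.43 and KO 22 at -0.10, so the probes of Hoxb6 disagreed on which knockout sample was higher. Hoxb9, a gene of the thoracic segments, had 43.7, 35.1 and 35.6 with 1 probe (0.01 ± 0.12) and 41.7, 26.3 and 25.6 with the other, where KO 4 stood 0.50 above wild type and KO 22 at -0.01. The sign of these small mean differences turned with normexp for Hoxb2 (-0.05) and Hoxb6 (-0.03), and for Hoxb9 with normexp (-0.07), quantile normalization (-0.00024) and the series matrix values (-0.05).

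In HoxA the 4 detected genes were level with or slightly under wild type. Hoxa3, needed for thymus and parathyroid, had intensities of 55.4 on KO 4, 52.5 on KO 22 and 51.1 on wild type (-0.05 ± 0.10, limma adjusted p = 0.771). Its other probe, 666 bases away, was not well above background on any array. Hoxa7 had 37.3, 38.2 and 43.9 (-0.34 ± 0.13, limma adjusted p = 0.213), with both knockout samples below wild type. Hoxa6 had 15.3, 10.9 and 16.0 (-0.43 ± 0.19), the value of KO 22 being not well above background. Hoxa9 had 10.2, 11.3 and 11.6 (-0.24 ± 0.17), the value of KO 4 being not well above background. Differences of Hoxa6, Hoxa7 and Hoxa9 were thus negative on both arrays and none passed. Over the whole set 8 of 14 tested Hox genes were lower on both knockout arrays and 2 higher, where 45.5% and 38.0% of all genes were.

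In HoxC and HoxD the differences of the detected genes had both signs. Hoxc4, a gene of the neck and upper trunk, had 72.7 on KO 4, 77.4 on KO 22 and 75.2 on wild type (-0.13 ± 0.15), the scaled differences being -0.25 on KO 4 and -0.01 on KO 22. Hoxc9, which specifies thoracic motor neurons, had 16.5, 9.16 and 10.4 (0.11 ± 0.36), so that KO 4 was higher than both others and KO 22, not well above background, lower; with normexp the mean difference was -0.06. Hoxd4, a gene of the neck, had 14.8, 18.3 and 13.2 (0.19 ± 0.25), with KO 4 level with wild type at -0.04 and KO 22 at 0.42. Hoxd13 had 28.4, 24.0 and 25.8 (-0.11 ± 0.10), both scaled differences being small at -0.06 and -0.15. None of these 4 passed (limma adjusted p from 0.521 for Hoxd13 to 0.855 for Hoxc9).

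Hoxc13, known for its part in hair and nails, was the only one of the 14 not well above background in wild type. It had intensities of 10.5 on KO 4, 13.7 on KO 22 and 6.02 on wild type, and only the value of KO 22 was well above background. The values of wild type and KO 4 were not well above background, so no bound on the fold is given. Hoxc13 entered the test through KO 22 alone, its brightest array, and the difference did not pass (limma adjusted p = 0.184). Between KO 4 and KO 22 themselves, 0 of the 14 Hox genes were 2-fold apart, where 1.42% of all genes were, with 1 array each and no test.

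The other 23 Hox genes, read by 29 probes, were not well above background on any array and allow no fold. Their intensities ran from 2.26 to 11.8 on KO 4, with a median of 3.11, from 2.04 to 11.6 on KO 22 (median 2.90), and from 2.02 on wild type (median 2.80), where the brightest, Hoxb3, stayed below its 11.6 on KO 22. Of the 29 probes 13, 15 and 11 held a surrogate on KO 4, KO 22 and wild type, which is a value the scanner software puts in place of a spot that does not exceed its background. A less strict flag of the software, set where a spot is significantly brighter than its background, was raised for 16, 14 and 18 of these probes, where 77.2%, 78.1% and 77.4% of all spots had it. It was raised on every array for 10 of the 29 probes and on none for 8.

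Some of these dim probes, and the dim second probe of the detected gene Hoxd13, differed between samples in what they gave, all under the limit of reliable detection. Both probes of Hoxd9, which acts in the lower trunk and limbs, were brighter on KO 22 (8.11 and 7.70) than on KO 4 (4.49 and 2.94) or wild type (3.18 and 3.11). For Hoxd3 1 probe gave 10.4 on KO 22 against 4.73 on KO 4 and 2.83 on wild type, and the other stayed between 2.72 and 3.05. The second Hoxd13 probe, 1243 bases from the detected one, gave 7.65 on KO 4, 6.67 on KO 22 and a surrogate of 2.44 on wild type, while the detected probe showed no such order. The probes of Hoxc10, a gene of the lumbar region, also disagreed, with 5.49, 6.59 and 2.67 for 1 and 3.58, 3.44 and 3.71 for the other. The 1 probe of Hoxc5 gave 4.13 on KO 4, 5.6 on KO 22 and a surrogate of 2.06 on wild type. Of the 29 probes it was the 1 with the less strict flag on both knockout arrays and not on wild type, while 2 had that flag on wild type only. Hoxa11, which shapes the forearm and uterus, gave 9.31 on KO 4 and 6.54 on wild type but a surrogate of 2.40 on KO 22. The probes of Hoxa4, which acts in the neck, went opposite ways on KO 22, with 4.54, 2.33 and 4.07 for 1 and 3.28, 5.27 and 2.80 for the other. Among these genes with more than 1 probe, the higher value of Hoxd9 on KO 22 thus recurred, while its KO 4 values did not keep 1 direction (0.29 and -0.28), and the differences of Hoxa4, Hoxd3, Hoxd13 and Hoxc10 did not recur.

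Hoxb1, a retinoic acid-responsive gene of the hindbrain, was printed as 10 spots of 1 probe on each array. None of the 30 spots was well above background. On wild type the 10 spots ran from 2.20 to 7.01 with a median of 4.79, and 9 of them were significantly brighter than their background. On KO 4 they ran from 2.24 to 2.90 (median 2.44, 2 spots significant) and on KO 22 from 2.05 to 2.54 (median 2.24, 3 spots significant). The upper wild type spots thus lay above every knockout spot and the lower ones among them. Many of the spots on both knockout arrays held surrogates, so the narrow knockout ranges are not a measured spread. The spots repeat the measurement of 1 RNA sample and are not replicates of the genotype, and since the values of both genotypes are below reliable detection no fold is given.

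**Figure D4:**
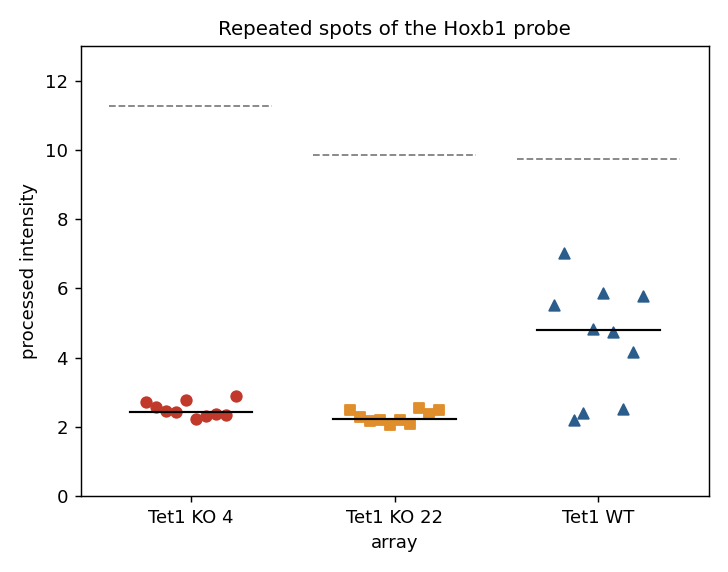
Processed intensity of the 10 repeated spots of the Hoxb1 probe on each array, with the median as a black line and the lowest intensity called well above background on that array as a dashed line (11.28, 9.86 and 9.75). All knockout spots, many of them surrogates, lie at or below 2.90, while wild type spots run from 2.20 to 7.01, under the dashed line.

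Hox proteins bind DNA with partners of the PBC and MEIS families. Of 9 such cofactor genes 8 were tested and 0 passed in either direction, with medians of 0.03 (KO 4) and 0.09 (KO 22), and 6 were higher on both arrays and 2 lower, beside 38.0% and 45.5% of all genes. Meis3 had intensities of 143 on KO 4, 121 on KO 22 and 75 on wild type, both knockout values lying above wild type (0.69 ± 0.10, limma adjusted p = 0.102). Meis2 and Pknox1, the latter encoding the MEIS-related protein Prep1, stood at -0.47 ± 0.12 and -0.49 ± 0.11 (limma adjusted p = 0.148 and 0.132). Pbx4 stood at 0.22 ± 0.12.

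Of 30 tested genes that act on Hox transcription 0 passed, with medians of 0.08 and 0.03. At an unadjusted limma p below 0.05 they numbered 8 above wild type and 4 below, where 28.2% of all genes were past that value and 15.0% were past it and lower. The caudal genes Cdx1, Cdx2 and Cdx4 activate the middle and posterior Hox genes in the embryo. Cdx1 and Cdx2 lay above wild type on both knockout arrays, Cdx1 by 0.24 ± 0.13. Cdx2, which also specifies trophoblast, had intensities of 287 on KO 4, 274 on KO 22 and 131 on wild type (0.97 ± 0.10, limma adjusted p = 0.0973). Cdx4 had 15.9, 8.86 and 2.18, with only KO 4 well above background, through which alone it entered the test. It did not pass (limma adjusted p = 0.105), and no fold is given since KO 22 and wild type were below reliable detection. T, the brachyury gene of the primitive streak, had 37.7, 23.4 and 13.2 (1.04 ± 0.28, limma adjusted p = 0.152). The retinoic acid receptor gene Rarb had 13.3, 8.89 and 17.4 (-0.80 ± 0.23, limma adjusted p = 0.160), the value of KO 22 being not well above background. Polycomb genes Ezh2, Eed and Suz12 stood at -0.04 ± 0.09, 0.32 ± 0.09 and 0.36 ± 0.10. Cdx1, Cdx2 and T were thus above wild type on both arrays by values that did not pass. Of the 6 detected Hox genes of paralogues 4 to 8, Hoxa6, Hoxa7, Hoxb7 and Hoxc4 lay below wild type on both arrays. Hoxb6 and Hoxd4 had differences of both signs. Of the 6 detected of paralogues 9 to 13, Hoxa9, Hoxb13 and Hoxd13 lay below wild type on both, Hoxd13 only at -0.06 and -0.15. Hoxc13, detected on KO 22 only, lay above wild type on both, and Hoxb9 and Hoxc9 had differences of both signs. The values of Hoxa9 on KO 4 and of Hoxa6 and Hoxc9 on KO 22 were not well above background. Any part of the Cdx genes in these values was not tested.

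**Figure D5:**
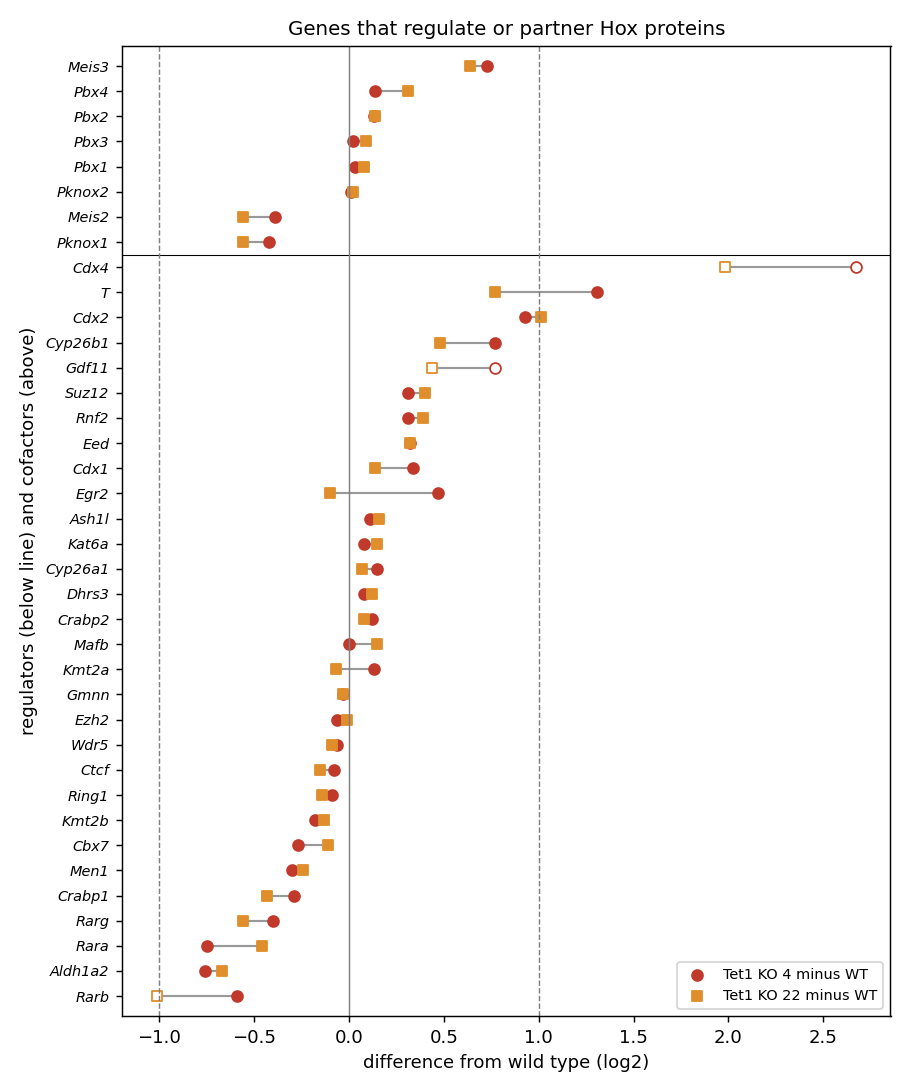
Log2 difference from wild type on KO 4 (circles) and KO 22 (squares) of the 8 cofactor genes (above the line) and 30 regulators (below it) tested; open symbols mark differences in which either sample was not well above background, and dashed lines mark 2-fold. Cdx4 is the only gene drawn beyond 2-fold on both arrays, but with open symbols, since its wild type value was not well above background.

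Of 21 tested genes from the stretches beside the clusters 0 passed, with medians of -0.14 and -0.10, 4 higher and 13 lower on both arrays, where 38.0% and 45.5% of all genes were. The even-skipped homologues Evx1 and Evx2, homeobox genes at the ends of HoxA and HoxD, were detected on all 3 arrays and stood at -0.38 ± 0.10 and -0.13 ± 0.09 (limma adjusted p = 0.151 and 0.392). The 4 farthest from wild type were the sorting nexin gene Snx11 at -0.59 ± 0.09 (limma adjusted p = 0.106), Hibadh, a mitochondrial enzyme gene, at 0.43 ± 0.10, the RNA-binding protein gene Hnrnpa1 at 0.42 ± 0.09 and the adaptor gene Skap2 at -0.41 ± 0.10. Among 22 other homeobox genes on the array, of the ParaHox, Nk and Dlx groups and their relatives, 14 were tested and 0 passed, with medians of -0.06 and 0.15. Nkx2-5, a heart gene, had intensities of 93.8 on KO 4, 103 on KO 22 and 51.8 on wild type (0.80 ± 0.17, limma adjusted p = 0.126). Dlx2, a gene of the forebrain and jaw, had 32.1, 30.9 and 17.9 (0.69 ± 0.10, limma adjusted p = 0.103). In these both knockout samples were above wild type. Nkx2-2, a gene of the ventral neural tube, had 16.1 on KO 4 and 19.9 on wild type (-0.77 ± 0.27, limma adjusted p = 0.202), the value of KO 22 being not well above background. Dlx1, which adjoins Dlx2 in the genome, was well above background on KO 22 only, so no fold is given.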

How the data were processed

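RNA of 3 samples was hybridised to 3 arrays on 1 slide, scanned on 1 day. The deposited intensity values were made with Agilent Feature Extraction 10.1.1.1, background-subtracted and detrended within each array, with no scaling between arrays, per the file headers. The deposited series matrix holds log2 values, and the submitters' processing notes name limma, without its steps; centring between arrays is unknown. Here the level of a probe was log2 of the processed intensity minus the array's 75th percentile, with outlier spots left out and repeated spots averaged. Of 41174 probes 79.5% were named through a RefSeq table (GRCm38.p6) and others by the file; probe positions are on mm7. Probes well above background on at least 1 array were tested, the brightest standing for its gene, with limma 3.58.1 in R 4.3.3 (lmFit, eBayes, Benjamini-Hochberg over 17710 genes, threshold 0.05). The fit has 1 residual degree of freedom, 3.03 after moderation, and assumes that wild type varies like the knockout pair, so 0.09 is a shared minimum of the errors and no precision of 1 gene. Of the steps only the limma fit was tested on simulated arrays, in which wild type was made to vary like the knockout pair, so that assumption was not tested.

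Every Hox gene described is accounted for; values on each array are printed for detected Hox genes that differed by at least 1 (log2) on either knockout array and for the 8 brightest, the rest by choice after their values were seen. Of each companion list up to 4 detected genes are named by size of difference, with Cdx1, the Polycomb genes, Evx1 and Evx2 added after seeing them. The members and lists were chosen with earlier results of these data known. Of 38 genes that fit the name pattern, 1 is not reported here. Alternatives were the normalization, background, filter, probe rule, series matrix, variance model, neighbouring bright spots and each knockout sample left out. The number of arrays limits the precision.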

Additional observations from a re-analysis of the deposited data

How the results depend on the processing

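The count of Hox genes passing was 0 as reported, under quantile normalization, without a filter, with probes averaged and without probes beside a spot bright on 1 array. It was 1, Hoxb13, with a filter requiring all 3 arrays, in the series matrix values and with an intensity trend, and 2, Hoxb13 and Hoxb7, with normexp. Without a filter limma called 0 genes in all. Hoxb13 kept a negative difference, from -1.79 to -0.95 with limma adjusted p from 9.54e-06 to 0.172, and -1.91 or -1.59 with KO 22 or KO 4 left out, which leaves no residual and so no test. The count at least 2-fold below wild type on both arrays was 1, and 0 with normexp. With 1 knockout sample left out it was between 1 and 2 (2 without KO 4, Hoxb7 joining), and the count 2-fold above was between 0 and 1 (1 without KO 4, Hoxc13). Hoxc13 entered through KO 22 alone and was not well above background on wild type, so this count gives no fold for it. The median difference of the Hox genes tested was -0.08 as reported, -0.04 without a filter on dim probes, and -0.14 to -0.08 with a knockout sample left out. The number detected on all 3 arrays rose from 10 to 23 with the flag for spots significantly brighter than their background, and was 14 with 1 array required. Leaving out a knockout sample turned the sign of 4 of 28 gene differences, to -0.18 for Hoxb6 and -0.04 for Hoxd4 without KO 22, and to -0.07 for Hoxb9 and -0.23 for Hoxc9 without KO 4. Of 108 gene differences under the other alternatives, 97 kept direction and side of the threshold, 5 gained a pass and 6 changed sign: with normexp -0.05 for Hoxb2, -0.03 for Hoxb6, -0.07 for Hoxb9 and -0.06 for Hoxc9, and for Hoxb9 -0.05 in the series matrix values and -0.00024 after quantile scaling. Normexp left out 8 spots dimmer than their background, and the cause of the other changes was not tested. No paired analysis was possible because wild type has 1 sample. Low signal limits most of these genes: 23 of 37 had no probe well above background.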
